A study of Homo sapiens with 12 samples.

Results

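The replication-dependent histone genes encode the H1 linker histone and the H2A, H2B, H3 and H4 core histones that package newly copied DNA. They were taken from the deposited gene tables by symbol as spelled there, as the rows named HIST1H to HIST4H in the older nomenclature or H1-1 to H1-6, H2AC, H2BC, H3C and H4C in the current one. The rule found 62 of 48114 rows, of which 54 lie on chromosome 6 and 8 on chromosome 1. The 62 rows comprise 6 H1, 15 H2A, 17 H2B, 11 H3 and 13 H4 rows. Of these, 4 join 2 genes that the annotation did not separate (H2AC18 with H2AC19, H4C14 with H4C15, H3C14 with H3C15 and H2AC7 with H3C4). The row of H2AC7 with H3C4 is counted as H2A throughout, so H3C4 is not part of the H3 counts and sums.

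PANC-1 and HPAF-II are cell lines from human pancreatic ductal adenocarcinoma (PDAC), which the study uses as models of the basal-like and the classical subtype. PANC-1 cells were silenced for 48 h with a control siRNA (siCtrl) or with 40 nM of siRNAs against the splicing factors QKI (siQKI) or RBFOX2 (siRBFOX2), and HPAF-II cells received siCtrl, with 3 libraries in each of the 4 groups. No genetic change separates the groups within PANC-1, each line is a single culture model, and the labels call the libraries of a group biological replicates without naming the cultures. The comparisons below ask how the histone transcripts that were captured in poly(A)-selected libraries differed after loss of either splicing factor and between the lines.

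Replication-dependent histone genes are transcribed mainly in S phase, lack introns, and make the major animal mRNAs that are not polyadenylated. Their transcripts end just after a conserved stem-loop, which is bound by the stem-loop binding protein SLBP, and the U7 small nuclear ribonucleoprotein positions the cut. Some of these genes can also use a downstream polyadenylation site or splice to a distant exon, which gives a polyadenylated transcript that remains outside S phase and in differentiated cells. A poly(A)-selected library therefore holds polyadenylated histone transcripts together with whatever stem-loop-ended RNA was carried over, and the deposited gene values do not separate the forms.

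The stem-loops of the genes that the knockdown results turn on are shown because they mark where the canonical transcript would end. The windows were read from GENCODE v29 transcripts (GRCh38) with the 16-base stem-loop in capitals, and the coordinates are those of the capitals.
H2BC5 (chr6:26158587-26158602, plus strand): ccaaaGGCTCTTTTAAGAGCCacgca
H2BC4 (chr6:26123472-26123487, minus strand): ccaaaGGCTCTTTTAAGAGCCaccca
H2AC6 (chr6:26124669-26124684, plus strand): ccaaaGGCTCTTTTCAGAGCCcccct
H2BC21 (chr1:149886188-149886203, minus strand): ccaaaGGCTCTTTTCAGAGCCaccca
H2AC18 (chr1:149842223-149842238, minus strand): caaaaGGCTCTTTTCAGAGCCaccca
H4C8 (chr6:26285131-26285146, minus strand): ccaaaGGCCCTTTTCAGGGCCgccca
H4C14 (chr1:149833032-149833047, plus strand): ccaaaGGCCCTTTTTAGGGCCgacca

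The H2A and H2B stem-loops shown begin with the same letters, and those of the H4 genes differ from them. The histone stem-loop pattern fixed some of the letters common to all of these stem-loops and left all other letters free. It was searched on the transcript strand and found in at least 1 annotated transcript of 25 of the 62 rows (40.3%). Among all transcripts it was found in 388 of 206694 (0.188%). Of the 37 rows without a match, 31 were annotated as coding sequence only, so that their ends could not be read. Among these are H2BC12 and H1-2. In 18 of the 25 rows an annotated transcript ran on for more than 100 bases after the stem-loop. That of H2BC21 continued for 1729 bases and those of H2AC6 for 1114 and 1128 bases. H2BC5 had a single-exon transcript that ended 39 bases after the stem-loop and a 2-exon transcript of 789 bases that lacked it.

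The regions before the start sites were read from RefSeq (GRCh38.p14), which held 61 of the 66 gene symbols of the members. The region of H2BC12 is shown because this row took the most counts in both lines. Many H2A and H2B genes face each other across a short common region, and the region of H2BC4 and H2AC6, which both rose in siQKI libraries, is shown beside that of H2BC8 and H2AC8, which were listed at 0 in HPAF-II libraries. Capitals mark the TATA box (letters TATAAA), the CCAAT box and the octamer bound by POU-family factors (letters ATGCAAAT) on either strand, and adjacent or overlapping matches run together.
H2BC12 (chr6:27146859-27147108, minus strand): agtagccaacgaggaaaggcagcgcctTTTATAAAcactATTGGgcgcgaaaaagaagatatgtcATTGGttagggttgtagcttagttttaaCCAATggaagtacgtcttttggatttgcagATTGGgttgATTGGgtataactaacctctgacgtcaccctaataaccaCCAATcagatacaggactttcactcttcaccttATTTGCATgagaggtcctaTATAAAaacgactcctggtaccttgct
H2BC4 to H2AC6 (chr6:26123927-26124171, plus strand): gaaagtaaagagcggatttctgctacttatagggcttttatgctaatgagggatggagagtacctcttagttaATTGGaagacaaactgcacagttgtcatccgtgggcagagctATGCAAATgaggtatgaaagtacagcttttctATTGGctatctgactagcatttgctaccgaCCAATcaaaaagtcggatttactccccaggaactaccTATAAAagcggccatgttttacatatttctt
H2BC8 to H2AC8 (chr6:26216689-26216920, plus strand): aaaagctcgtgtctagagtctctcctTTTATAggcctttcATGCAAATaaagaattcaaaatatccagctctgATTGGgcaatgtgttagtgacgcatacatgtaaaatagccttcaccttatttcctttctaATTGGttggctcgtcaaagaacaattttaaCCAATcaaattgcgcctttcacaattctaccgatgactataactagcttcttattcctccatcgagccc

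Within the 250 bases before the start, the TATA box was found on either strand in 41 of 61 members (67.2%) against 11.1% of the 27305 promoters in RefSeq. The CCAAT box was found in 52 (85.2% against 33% of all promoters) and the octamer in 26 (42.6% against 1.66%). The octamer was carried by 14 of 17 H2B and 11 of 15 H2A genes but by 1 of 11 H3, 0 of 6 H1 and 0 of 12 H4 genes, and genes that face each other share a window. The CCAAT box was present in every H1, H2A, H2B and H3 gene examined and in 3 of 12 H4 genes. These matches describe the letters only.

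The silencing was visible in the targeted genes. QKI stood at 25909, 24539 and 26150 normalized counts in siCtrl libraries and at 4630, 5453 and 5020 in siQKI libraries (log2 fold change -2.34, SE 0.06, adjusted p = 9.15e-13 by limma). RBFOX2 stood at 15355, 15508 and 15424 in siCtrl and 2403, 2171 and 1712 in siRBFOX2 libraries (-2.89, SE 0.09, adjusted p = 4.70e-11 by limma). RBFOX2 was also lower in siQKI libraries (-0.29, adjusted p = 0.0207 by limma), whereas QKI did not pass the threshold in siRBFOX2 libraries (0.13, adjusted p = 0.105 by limma). Both of these calls turned with upper-quartile rescaling, to adjusted p of 0.0849 for RBFOX2 and 0.0328 for QKI by limma. The epithelial markers KRT8, KRT18 and KRT19 were present in every library, while INS was at 0 in all of them. CD14 and COL1A1, markers of leukocytes and fibroblasts, were listed in every library of both lines. PTPRC, the other leukocyte marker examined, was at 0 in all siCtrl and siQKI libraries and at 0, 20.3 and 4.63 in siRBFOX2 libraries. The endothelial marker PECAM1 and the acinar markers PRSS1 and CPA1 were at 0 in most libraries. One HPAF-II library stood apart, since replicate 1 held 4248 normalized counts of the mesenchymal marker VIM against 81.3 and 85.3 in the others.

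The 62 rows together took 42277 ± 2048 normalized counts per PANC-1 siCtrl library (SD, n = 3), which was 0.0123% of the total. A normalized count is a gene count that the authors divided by the size factor of its library, and a PANC-1 library held 321834000 to 348181000 of them and an HPAF-II library 279777000 to 287233000. The sum was 59737 ± 2651 in siQKI and 45389 ± 3057 in siRBFOX2 libraries (SD, n = 3 each). All 3 siQKI libraries, at 62781, 57931 and 58499, lay above the highest siCtrl library at 43547. The siRBFOX2 libraries, at 48725, 42722 and 44721, overlapped with siCtrl libraries. H2B rows gave 49.7% of the sum in siCtrl libraries and H2A rows 22.99%, followed by H1 (12.01%), H4 (10.2%) and H3 rows (5.04%). In bulk RNA, a change in the share of cells in S phase and a change in histone RNA per cell cannot be told apart.

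Of the 62 rows, 54 reached an average of 10 normalized counts over the 9 PANC-1 libraries and were tested. Of the 8 that were not, H4C6, H2BC1, H4C7, H2AC1 and H3C7 were at 0 in all 12 libraries, while H1-1, H2BC10 and H2BC9 had a mean of at most 9.06. A gene past the threshold had an adjusted p under 0.05 by limma on log2(normalized count + 1), adjusted over the 22544 genes tested, and fold changes of low genes are understated by the pseudocount of 1. The median SE of a log2 fold change was 0.30 over the histone rows and 0.14 over all genes, so the same change was harder to detect in a histone row.

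Depletion of QKI raised 14 histone rows and lowered 1. These 15 of 54 rows (27.8%) compare with 33.0% of all genes tested that passed the threshold in either direction, and the 14 that rose (25.9%) with 14.9% of all genes that rose. The median log2 fold change was 0.29 over the histone rows and 0.03 over all genes. The histone share of calls therefore lay near the background in number, whereas the calls themselves were nearly all increases. A fold change of at least 1.5 was reached by 11 of the 15, of which 10 were increases. In 20 of 54 rows every siQKI library was above every siCtrl library (37.0%, against 21.6% of all genes), and in 2 every one was below, where 44.7% of all genes did not overlap in either direction. Both COL1A1 (3869 to 4282 normalized counts in siCtrl and 7589 to 8969 in siQKI libraries) and the epithelial CDH1 (968 to 997 and 2275 to 3026) were also higher in siQKI libraries. On the deposited scale other markers did not follow. KRT8, KRT19, EPCAM, GATA6 and CD14 overlapped between the groups, and ZEB1 fell by 0.28. KRT18 and VIM fell by 0.20 and 0.13, with calls that were lost under upper-quartile rescaling. With that rescaling GATA6 (0.52, adjusted p = 0.0376 by limma) and KRT19 (0.12, adjusted p = 0.0338 by limma) passed as higher. The part of these markers in the histone values was not tested.

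Among the 17 histone rows that averaged 500 normalized counts or more, 11 rose and none fell, while 21.2% of all genes in that range rose and 51.7% passed the threshold in either direction. H2BC8 was the other row of the 17 with an unadjusted p under 0.05. All 8 rows that took the most counts in PANC-1 libraries were among the 11.

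**Figure D1:**
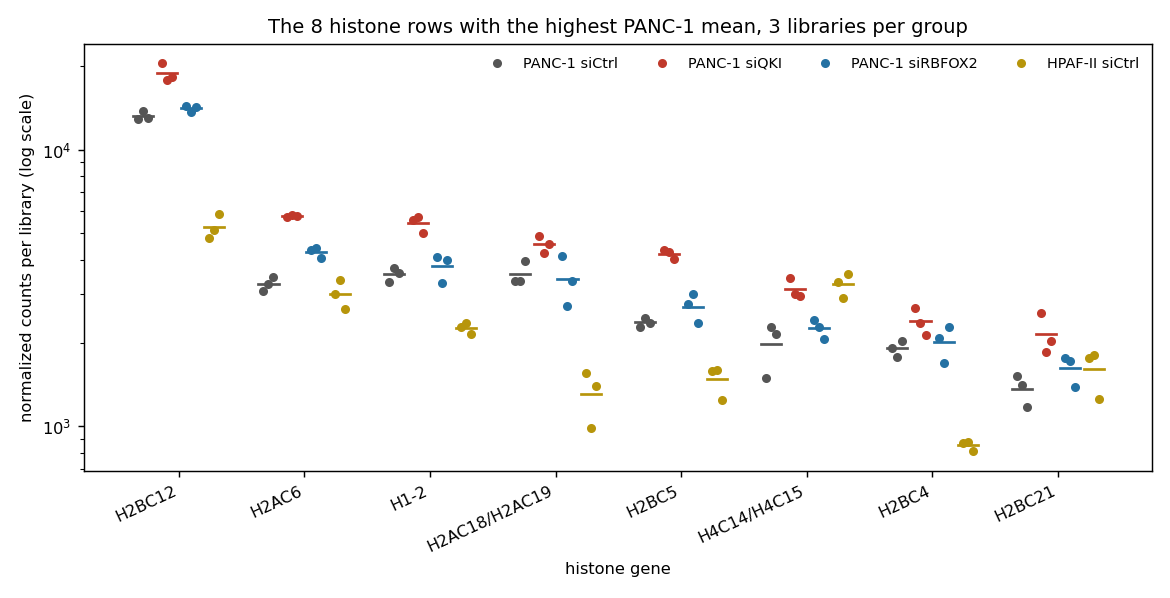
Normalized counts (log scale) of the 8 histone rows with the highest PANC-1 mean, 1 point per library and a bar at each group mean, with HPAF-II libraries on their own normalization. In all 8 rows the 3 siQKI libraries lay above the 3 siCtrl libraries, while siRBFOX2 libraries lay above them only for H2AC6.

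The H2B genes gave the largest part of the increase. H2BC12 stood at 12918, 13804 and 13059 normalized counts in siCtrl libraries, at 20509, 17913 and 18277 in siQKI and at 14416, 13696 and 14295 in siRBFOX2 libraries. The siQKI libraries lay apart from both other groups (log2 fold change 0.51, SE 0.05, adjusted p = 3.23e-06 by limma against siCtrl). H2BC5 rose from 2285, 2462 and 2368 in siCtrl to 4345, 4272 and 4006 in siQKI libraries (0.83, SE 0.09, adjusted p = 2.65e-06 by limma). Its siRBFOX2 libraries, at 2756, 3002 and 2356, overlapped with siCtrl libraries. H2BC21 changed from 1514, 1410 and 1172 to 2562, 1850 and 2033 (0.65, SE 0.13, adjusted p = 0.0015 by limma). The 3 siQKI libraries were the highest of the 9 for this gene too. H2BC4 showed a smaller rise, from 1918, 1781 and 2040 to 2685, 2353 and 2145 (0.32, SE 0.11, adjusted p = 0.0417 by limma), and its call was lost under 6 of 17 alternative settings. H2BC11 (0.58) and H2BC15 (0.69) were the remaining H2B rows that rose, so 6 of 14 H2B rows rose. H2BC11 was chosen after its values were seen.

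Of 14 H2A rows, 4 rose. H2AC6, whose product is a canonical H2A, stood at 3069, 3278 and 3453 normalized counts in siCtrl libraries and at 5688, 5789 and 5745 in siQKI libraries (0.81, SE 0.06, adjusted p = 1.53e-07 by limma). No siQKI library of H2AC6 came near the siCtrl range. The joined row of H2AC18 and H2AC19, a pair of near-identical copies whose reads cannot be assigned to either, stood at 3343, 3337 and 3965 in siCtrl and 4887, 4212 and 4560 in siQKI libraries. Its groups lay apart by little (0.36, SE 0.12, adjusted p = 0.0298 by limma), and the call was lost under 5 of 17 settings. H2AC11 (0.83, SE 0.19) and H2AC15 (0.93, SE 0.28) also rose, with adjusted p of 0.00255 and 0.0183 by limma. The H2AC15 row overlaps that of H2BC15, and the strandedness of the counting is not stated, so the reads of these genes may be shared. The same limit applies to H2BC12, whose row overlaps that of H4C9. It also applies to H2AC6, H2BC4 and H2BC11, which overlap rows without a gene symbol.

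In the linker histones, H1-2 and H1-3 moved in opposite directions. H1-2 stood at 3308, 3739 and 3589 normalized counts in siCtrl and at 5544, 5709 and 5004 in siQKI libraries (0.61, SE 0.09, adjusted p = 4.96e-05 by limma). H1-3 stood at 148, 117 and 203 in siCtrl and at 37.6, 59.3 and 36.7 in siQKI libraries (-1.79, SE 0.45, adjusted p = 0.00603 by limma). It was the only histone row that fell, with its siQKI libraries all below its siCtrl libraries, and it stayed past the threshold in all 17 alternative settings. H1-6, known as the testis H1, had 48.8, 0 and 0 in siCtrl and 104, 64.5 and 55.6 in siQKI libraries. Its fitted log2 fold change of 4.31 (SE 1.37, adjusted p = 0.0241 by limma) rests on 2 siCtrl libraries at 0, depends on the pseudocount and lost its call under 6 of 16 settings.

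Among H4 rows, the joined row of H4C14 and H4C15 stood at 1488, 2293 and 2154 normalized counts in siCtrl and 3440, 3005 and 2960 in siQKI libraries (0.69, SE 0.13, adjusted p = 0.000832 by limma). H4C8 stood at 629, 653 and 559 in siCtrl, 910, 1033 and 1499 in siQKI and 984, 878 and 1168 in siRBFOX2 libraries. Both knockdown groups of H4C8 lay above siCtrl (0.87, SE 0.17, adjusted p = 0.000934 for siQKI by limma). These were the 2 of 11 H4 rows that rose. None of the 10 H3 rows passed the threshold in siQKI libraries by limma, and 1 of them had an unadjusted p under 0.05. Summed, however, the H3 rows were at 1962 to 2260 normalized counts in siCtrl and at 2393 to 2625 in siQKI libraries, so that every siQKI library was above. H3C10 was the row with an unadjusted p under 0.05 (0.76, SE 0.30, adjusted p = 0.0688 by limma), and it passed in 4 of 17 settings. The joined row of H3C14 and H3C15, the H3 row with the most counts, stood at 701, 873 and 854 in siCtrl and 730, 852 and 711 in siQKI libraries (-0.08, SE 0.17). Both H3 rows were chosen after their values were seen.

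**Figure D2:**
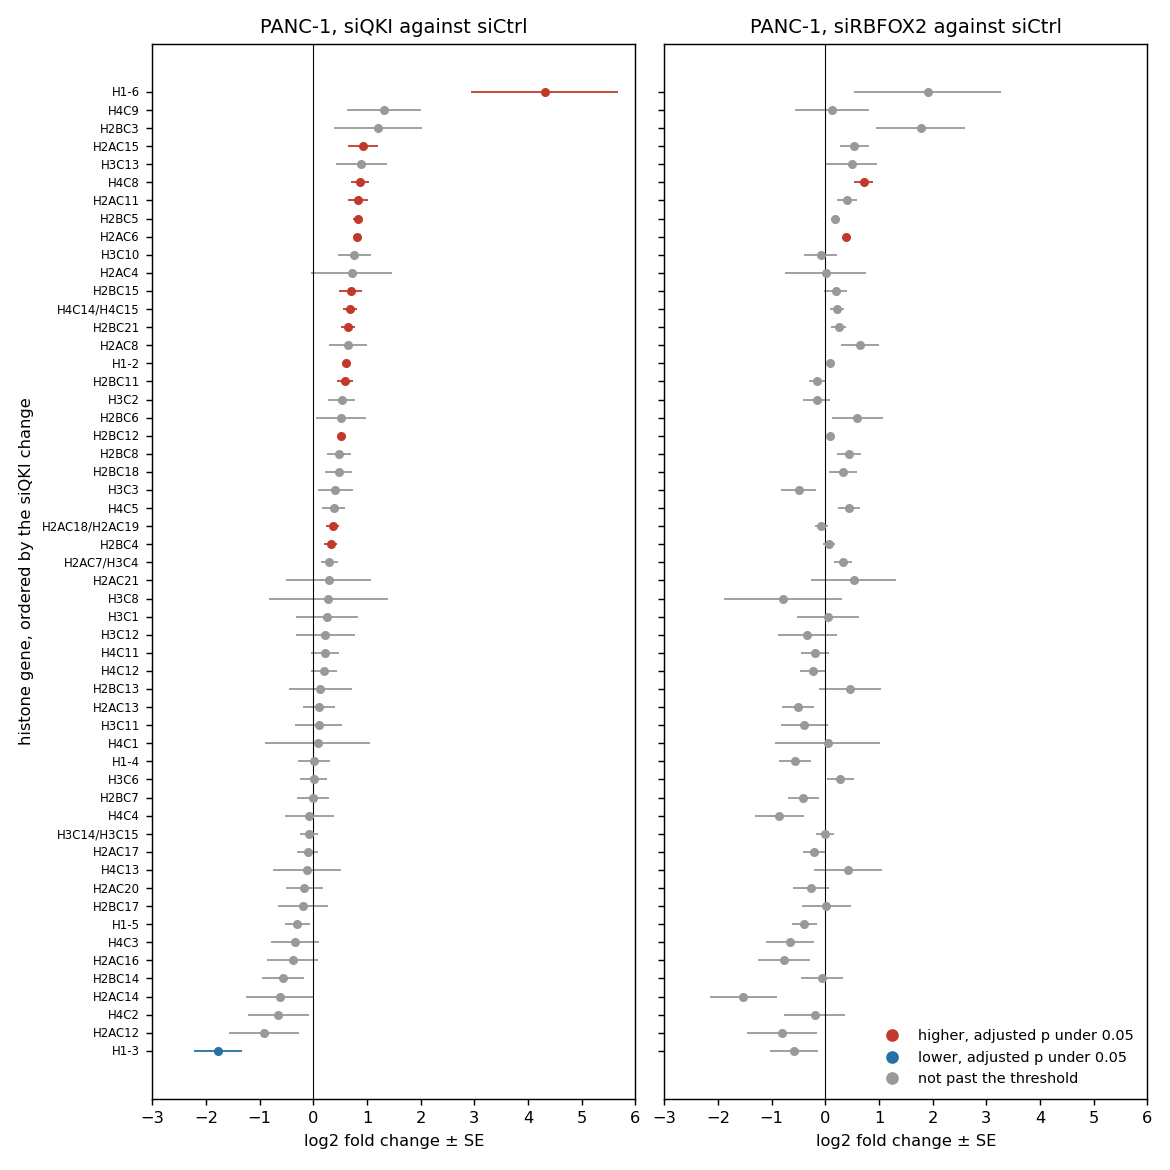
Log2 fold change against siCtrl with its SE for the 54 tested histone rows, siQKI on the left and siRBFOX2 on the right, both ordered by the siQKI change. For siQKI, 14 rows were past the threshold above 0 and only H1-3 below it. For siRBFOX2 only H4C8 and H2AC6 passed.

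Depletion of RBFOX2 raised H2AC6 and H4C8 alone among the histone rows tested. These 2 of 54 rows (3.70%) compare with 26.5% of all genes past the threshold in either direction and 2713 of 22544 genes that rose. The median log2 fold change was 0.03 over the histone rows and 0.01 over all genes. H2AC6 stood at 4350, 4404 and 4044 normalized counts, above its 3 siCtrl libraries (0.39, SE 0.06, adjusted p = 0.000339 by limma), and H4C8 rose by 0.71 (SE 0.17, adjusted p = 0.00576 by limma). Another 4 rows had an unadjusted p under 0.05. In 4 of 54 rows every siRBFOX2 library was above every siCtrl library (7.41%, against 18.2% of all genes), and in none was every library below, where 37.9% of all genes did not overlap. Both rows belong to the 17 that averaged 500 normalized counts or more, a range in which 42.8% of all genes passed. The count depended on single libraries, since 5 rows passed without siRBFOX2 replicate 1 (2 higher and 3 lower), 4 without siCtrl replicate 1 and 4 without siCtrl replicate 3.

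Both knockdowns share the siCtrl libraries, so they were also compared directly. In siQKI libraries 8 histone rows were higher than in siRBFOX2 libraries and none was lower, with 14.8% of the histone rows and 21.5% of all genes past the threshold in either direction and 9.93% of all genes higher. All 8 belong to the 17 rows of 500 normalized counts or more, a range in which 35.1% of all genes passed. The siQKI libraries were all above in 14 rows and all below in 1, or 27.8% of the histone rows against 35.2% of all genes. The 8 rows were H2BC12, H2AC6, H1-2, H2BC5, H2BC11, H2BC21 and the joined rows of H2AC18 with H2AC19 and H4C14 with H4C15. The difference was 0.64 on the log2 scale for H2BC5 (SE 0.09, adjusted p = 6.18e-05 by limma) and 0.42 for H2BC12 (SE 0.05, adjusted p = 4.72e-05 by limma). H4C8 differed by 0.16 (SE 0.17, adjusted p = 0.582 by limma), so a difference between the knockdowns was not detected for this gene. The number of rows fell to 5 without siQKI replicate 1.

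The rows differ in how much of the genome they span, from a compact gene to a long row. A long row may include distant exons or downstream sequence, or join 2 neighbouring genes, as that of H2AC7 with H3C4 does. Of the 54 tested rows, 22 spanned at least 1000 bases (median 3081.5 bases) and 32 less (median 505 bases). In siQKI libraries 11 of the 22 long rows rose, while 3 of the 32 short rows rose and 1 fell. Over all genes tested 14.9% rose and 18.1% fell. The short rows that rose were H1-2, the joined row of H2AC18 and H2AC19, and H1-6. Long rows also held more counts, since 13 of the 17 rows with a mean of at least 500 were long, and of those 13 rows 9 rose. In the same range 2 of 4 short rows and 21.2% of all genes rose. Under a mean of 500, 2 of 9 long rows and 1 of 28 short rows rose. Whether the long and the short rows differ was not tested.

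Long rows added up to 29914 ± 1143 normalized counts in siCtrl, 44544 ± 2415 in siQKI and 33820 ± 918 in siRBFOX2 libraries (SD, n = 3 each). Both knockdown groups lay above the siCtrl range of 28648 to 30870. Short rows added up to 12364 ± 979, 15193 ± 371 and 11569 ± 2252 (SD, n = 3 each). All siQKI libraries again lay above all siCtrl libraries, and the siRBFOX2 libraries were spread from 9347 to 13850. The rise of the short rows lay in H1-2 and the joined row of H2AC18 and H2AC19, since the other 37 added up to 5270 ± 567 in siCtrl and 5221 ± 508 in siQKI libraries (SD, n = 3 each). Short rows made up 29.2% of the histone counts in siCtrl and 25.5% in siQKI libraries.

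**Figure D3:**
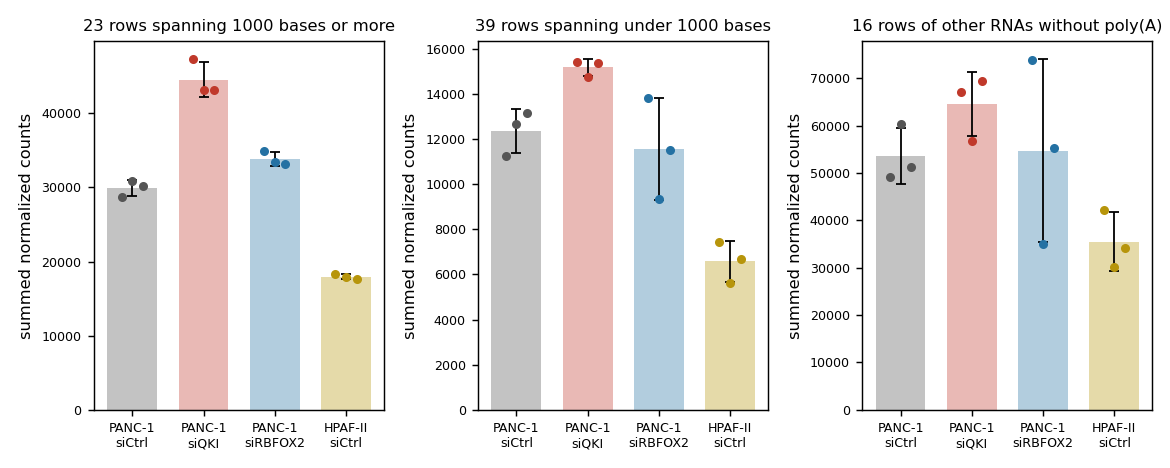
Summed normalized counts of the 23 long histone rows, the 39 short histone rows and 16 rows of other RNAs that lack a poly(A) tail, as group mean (bar), SD (whisker) and single libraries (points), with HPAF-II libraries on their own normalization. The siQKI libraries lay above the siCtrl libraries for long and short histone rows, and overlapped with them for the other RNAs.

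RNAs that lack a poly(A) tail, such as RN7SK, RN7SL1, RMRP and RPPH1, give a measure of how much such RNA was carried into each library. Their sum over 16 rows was 49256 to 60368 normalized counts in siCtrl and 56847 to 69567 in siQKI libraries, so the groups overlapped. It averaged 53615 ± 5931 in siCtrl and was higher in siQKI libraries, at 64524 ± 6757 (SD, n = 3 each). In siRBFOX2 libraries it was 73832, 35060 and 55327, lowest in replicate 2, which also held the lowest sum of short histone rows. By limma, 0 of 13 such rows tested passed the threshold in siQKI libraries and 0 had an unadjusted p under 0.05, with a median log2 fold change of 0.16. RN7SL1, RN7SL2 and RN7SK, which held the most counts, had log2 fold changes of 0.28 (SE 0.19), 0.27 (SE 0.16) and 0.34 (SE 0.19). The SE of each row also holds the spread of the siRBFOX2 libraries. Every siQKI library was above every siCtrl library for RN7SL2 and for the joined row of RNU1 genes. RNU11, SCARNA2, SNORA73B and SNORD3A had negative fold changes. In siRBFOX2 libraries only SNORA73B, a small nucleolar RNA, passed (1.05, adjusted p = 5.46e-06 by limma). The part of carry-over in the histone values was not tested.

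A total of 11 pairs of H2A and H2B genes had facing start sites with 193 to 247 bases between them, and 9 of these regions held the octamer. The start of H2AC12, which had no RefSeq promoter entry, was taken from its row. Both genes were tested in 10 pairs. In siQKI libraries both partners rose in 3 pairs (H2AC6 with H2BC4, H2AC11 with H2BC11, and H2AC15 with H2BC15), 1 partner rose in 2 pairs, and neither in 5. The rows of H2AC15 and H2BC15 overlap, so the same reads may count in both and the rise of 1 may not be separate from the other. H2AC15 lost its call in 2 of 17 settings, without siQKI replicate 2 and without siCtrl replicate 3 (adjusted p up to 0.0848 by limma), and H2BC15 lost its call in 3 of 17. In both split pairs the H2B gene rose. H2BC21 rose by 0.65 beside H2AC20, a short row at 128, 196 and 121 normalized counts in siCtrl libraries and 115, 182 and 102 in siQKI libraries (-0.17, SE 0.34). H2BC12 rose by 0.51 beside H2AC12, which stood at 279, 287 and 176 in siCtrl and at 31.9, 228 and 277 in siQKI libraries (-0.92, SE 0.65), groups that overlapped. H2AC20 and H2AC12 were chosen after their values were seen. Within the pair of H2AC6 and H2BC4, whose common region is printed above, the fold changes were 0.81 and 0.32.

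**Figure D4:**
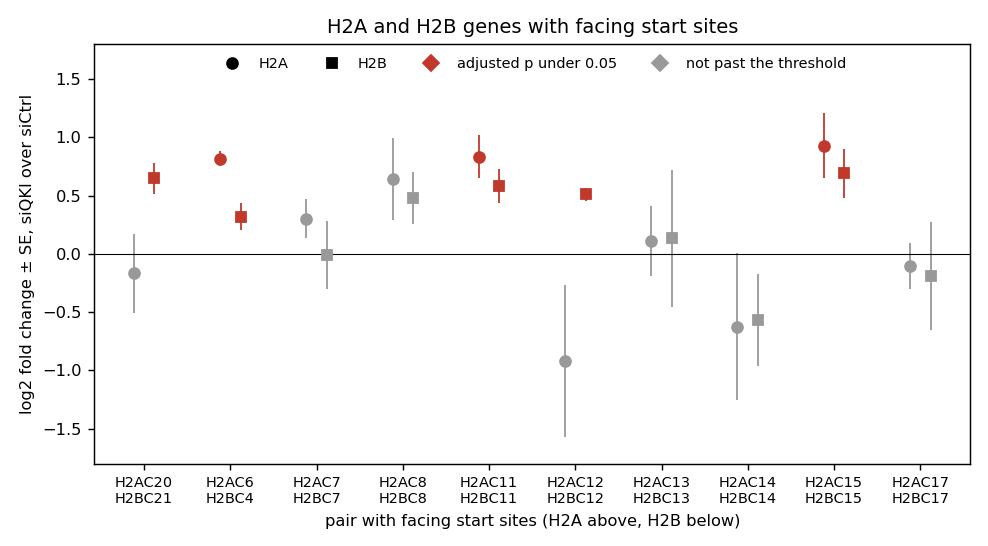
Log2 fold change of siQKI over siCtrl with its SE for the 10 tested pairs of H2A (circles) and H2B genes (squares) with facing start sites. Both partners passed the threshold in 3 pairs, only the H2B gene in those of H2BC21 and H2BC12, and neither partner in the remaining 5. The rows of H2AC15 and H2BC15 overlap, so their reads may be shared.

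Of 24 genes of histone transcription and 3′-end processing, 10 fell and 1 rose in siQKI libraries, and 13 did not pass the threshold. Over all genes 18.1% fell in siQKI and 14.5% in siRBFOX2 libraries, and among those averaging 500 normalized counts or more 30.5% and 25.1% fell. SLBP, which binds the stem-loop, fell by 0.30 on the log2 scale (adjusted p = 6.44e-05 by limma), and ERI1, a nuclease that trims the stem-loop end, fell by 0.46 (adjusted p = 0.000301 by limma). LSM10, a subunit specific to the U7 particle, and CPSF2, a subunit of the cleavage complex, fell by 0.37 and 0.23. NPAT, the coactivator of histone transcription, rose by 0.23 (adjusted p = 0.0196 by limma). In siRBFOX2 libraries 10 of the 24 genes fell and none rose, SLBP by 0.38 (adjusted p = 1.28e-05 by limma). With the libraries rescaled by their upper quartile, the count for siQKI became 7 lower and 3 higher, SLBP, ERI1 and LSM10 still fell, and CPSF2 lost its call (adjusted p = 0.0520 by limma).

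Of 22 genes of DNA replication and S phase, 13 fell and 1 rose in siQKI libraries, and 19 fell and 2 rose in siRBFOX2 libraries, beside the same shares of all genes. CDC45, a component of the replicative helicase, fell by 0.62 in siQKI libraries (adjusted p = 1.13e-07 by limma), and CDK2, the S-phase kinase, fell by 0.52. PCNA, the replication clamp, fell by 0.10 in siQKI and by 0.35 in siRBFOX2 libraries, and its change in siQKI libraries lost the call with upper-quartile rescaling (adjusted p = 0.592 by limma). RRM2, a subunit of ribonucleotide reductase, rose in both (0.32 and 0.25). Of 12 histone chaperones, 8 fell in siQKI and 9 in siRBFOX2 libraries and none rose, among them ASF1A, which hands H3 and H4 to the assembly factors (-0.36 and -0.21). With upper-quartile rescaling, 10 S-phase genes fell and 4 rose and 4 chaperones fell in siQKI libraries.

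A further list held histone genes whose symbols fall outside the rule, most of which are expressed also outside S phase from polyadenylated transcripts. Of 15 tested, 3 rose and 3 fell in siQKI libraries, where 14.9% of all genes rose and 18.1% fell. Among genes averaging 500 normalized counts or more, 21.2% rose and 30.5% fell. H2AJ, an H2A variant, rose by 0.36 (adjusted p = 0.00082 by limma). H4-16, which would count as replication-dependent by its older name but is spelled outside the rule in the tables, also passed (1.08, adjusted p = 0.0458 by limma), although its libraries overlapped (98.0 ± 39.1 normalized counts in siCtrl and 206 ± 63.3 in siQKI libraries, SD, n = 3 each). The variant H2AZ1 fell by 0.40, the centromeric H3 variant CENPA by 0.46, and MACROH2A1 by 0.11, a call lost with upper-quartile rescaling. Upper-quartile rescaling changed this count to 7 higher and 2 lower. Of 7 cell-cycle inhibitors tested, 3 rose and 2 fell in siQKI libraries, beside the same shares of all genes. CDKN1A (0.36, adjusted p = 7.05e-05 by limma) and BTG2 (0.73, adjusted p = 0.0013 by limma) were among those that rose and CDKN2D (-0.65) among those that fell.

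The HPAF-II table was normalized on its own, so the 2 lines were compared without a test, on values rescaled to a total of 1000000. In HPAF-II siCtrl libraries the histone rows took 0.00866% of the total against 0.0123% in PANC-1 siCtrl libraries. Of 56 rows that averaged 10 normalized counts or more in 1 of the lines, 22 were at least 2-fold lower in HPAF-II and 5 at least 2-fold higher, against 25.2% and 27.2% of 24673 genes. The 22 rows were 39.3% of the histone rows and the 5 rows 8.93%. The median log2 ratio was -0.73 over the histone rows and 0.08 over all genes, and in 26 of 56 rows every HPAF-II library was below every PANC-1 library (46.4%, against 31.7% of all genes). In 3 rows every one was above, so that 51.8% of the histone rows and 63.7% of all genes did not overlap.

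Several neighbouring genes on chromosome 6 were at or near 0 in HPAF-II. H2BC8 was listed at 0 in all 3 HPAF-II libraries and at 339, 424 and 528 normalized counts in PANC-1 siCtrl libraries. H3C6 was likewise listed at 0 in HPAF-II and at 282, 205 and 418 in PANC-1 siCtrl libraries. H2AC8, which faces H2BC8 across the region printed above, was listed at 0 in HPAF-II as well and at 111, 114 and 255 in PANC-1 siCtrl libraries. H4C5, beside them, was at 0, 0 and 29.4 in HPAF-II against 329, 445 and 626. The joined row of H2AC7 and H3C4 was at 21.0, 17.2 and 113 against 505, 575 and 641. For both rows, replicate 3 held the highest HPAF-II value. H3C8 was at 0, 8.02 and 0 against 139, 36.0 and 37.2. H2BC7 and H1-3, which lie among them and of which the former was chosen after its values were seen, were present in HPAF-II at 220, 96.2 and 76.2 and at 195, 74.5 and 170 normalized counts, so the stretch was not uniformly low.

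Most H4 rows were lower in HPAF-II as well, but their sum was not. Of 11 H4 rows, 4 were at least 2-fold lower (H4C5, H4C3, H4C13 and H4C4) and 3 at least 2-fold higher, with a median log2 ratio of -0.46, and the libraries lay apart downwards in 6 rows and upwards in 2. H4C3, H4C13 and H4C4 are named after their values were seen. Of the higher rows, H4C12 was at 662, 498 and 495 normalized counts in HPAF-II and 275, 275 and 234 in PANC-1 siCtrl libraries, or 1.95 ± 0.36 against 0.760 ± 0.071 after rescaling (SD, n = 3 each). The joined row of H4C14 and H4C15 was at 11.5 ± 1.21 against 5.74 ± 1.18 after rescaling (SD, n = 3 each), which just reached the 2-fold limit. H4C11 was at 766, 286 and 546 in HPAF-II and 317, 397 and 290 in PANC-1, and its libraries overlapped. H2BC18, whose row spans 29685 bases and overlaps FCGR1A, had the highest ratio (log2 ratio 2.06), with 861, 458 and 372 in HPAF-II and 186, 156 and 144 in PANC-1 libraries. H2AC21 and H4C1 also had ratios above 2-fold, but each was at 0 in 1 HPAF-II library. H4 rows gave 19.8% of the histone counts in HPAF-II and 10.2% in PANC-1 siCtrl libraries, and the joined row of H4C14 and H4C15 alone held 3262 of the mean H4 sum of 4881 normalized counts in HPAF-II. In PANC-1 siCtrl libraries the mean H4 sum was 4340, with each line on its own normalization. The H4 sums ranged from 4115 to 5322 in HPAF-II and from 3585 to 4771 in PANC-1 siCtrl libraries, so they overlapped. Without HPAF-II replicate 1, the library with more VIM, 23 rows were at least 2-fold lower and 2 higher.

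**Figure D5:**
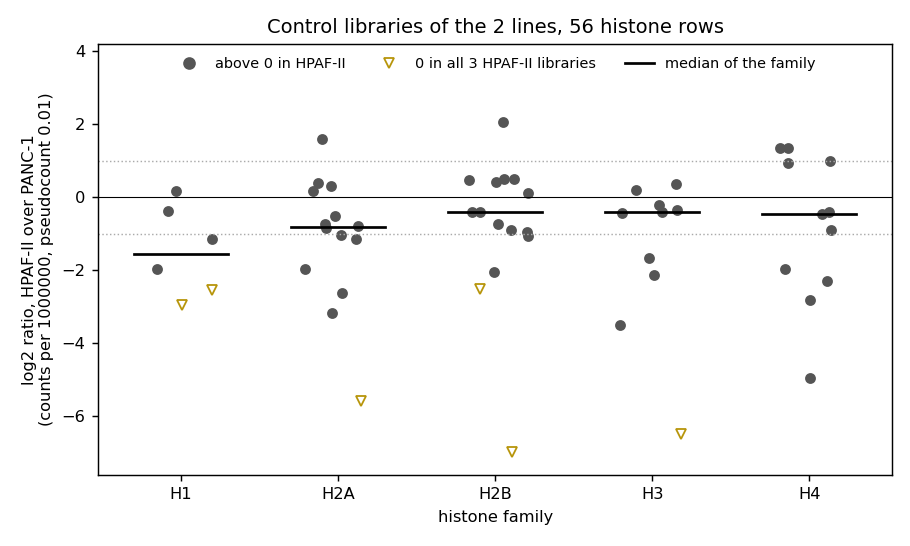
Log2 ratio of the mean in HPAF-II to that in PANC-1 siCtrl libraries for 56 histone rows by family, on counts rescaled to a total of 1000000 with a pseudocount of 0.01, where dotted lines mark 2-fold. Triangles are rows at 0 in all 3 HPAF-II libraries, whose position depends on the pseudocount, and 22 rows lie at or below the lower line against 5 at or above the upper one.

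The rows that took the most counts were largely shared by the lines. The same 8 rows held the highest means in both. H2BC12 fell short in HPAF-II, at 4801, 5129 and 5868 normalized counts (18.6 ± 1.85 against 38.5 ± 0.978 after rescaling, SD, n = 3 each). H2AC6 differed little, at 2998, 3376 and 2657 in HPAF-II libraries (10.6 ± 1.21 against 9.49 ± 0.476 after rescaling), and its libraries overlapped between the lines. H2BC21 was at 1770, 1804 and 1254 in HPAF-II (log2 ratio 0.51), with overlapping libraries. Of the lists above, the histone processing genes had a median log2 ratio of 0.28 and the S-phase genes of 0.09, while SLBP was lower in HPAF-II (65.3 ± 2.92 against 93.0 ± 4.35 after rescaling, SD, n = 3 each). QKI was at 14.5 ± 2.76 in HPAF-II and 74.2 ± 3.27 in PANC-1 siCtrl libraries after rescaling. The sum of RNAs without a poly(A) tail was 0.0125% of the total in HPAF-II and 0.0156% in PANC-1 siCtrl libraries, and its part in the histone difference was not tested.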

How the data were processed

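PolyA RNA of 12 libraries was measured by paired-end sequencing. The submitters' processing notes name STAR 2.7.5a, DESeq2 and hg38. The authors deposited a signal value for each gene, its read count divided by a library size factor, estimated over 9 PANC-1 libraries and, in another table, over 3 HPAF-II libraries. Every value was a whole multiple of 1 step per library, but a step is not a fragment, so depth in fragments is unknown and precision was taken from the replicates. The study's methods name the FAST DB annotation for splicing and list featureCounts, but the annotation and strand setting of the gene counts are not given in the sources used here, and 12 of 62 rows overlap another row.

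The 9 PANC-1 libraries entered 1 limma 3.58.1 fit (trend) of log2(normalized count + 1), for genes that averaged 10 or more, with Benjamini-Hochberg adjustment and a two-sided threshold of 0.05. P-values measure the spread between these libraries. The fit was first tested on simulated data. Lines were described on values rescaled to 1000000 with a pseudocount of 0.01. Sequences came from GENCODE v29 and RefSeq. Python 3.11.15 was used for summaries. Members and lists were chosen with earlier results of these data known. The text names the 8 members with the highest mean in each line, up to 10 called members per knockdown with the largest change, 6 members at each end of the ratio between lines, QKI, RBFOX2 and genes of the lists. A gene of the lists is not reported here. Others are said to have been chosen after their values were seen. Alternatives were other pseudocounts, filters and scalings, a fit to the compared groups alone, no trend, a replicate block, a fold limit and each library left out.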

Additional observations from a re-analysis of the deposited data

How the results depend on the processing

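The siQKI count of 15 histone rows past the threshold was 11 with a fold change of at least 1.5 and otherwise 13 to 16 under other pseudocounts, filters, scalings and fits, and 11 to 16 with 1 library left out. The siRBFOX2 count of 2 was 1 with a fold change of at least 1.5 and 2 to 5 with 1 library left out. The count of 8 for siQKI against siRBFOX2 was 5 without a mean-variance trend, 2 with a fold change of at least 1.5 and 5 to 12 with 1 library left out, 12 without siRBFOX2 replicate 1. The summed level without the 3 members with the highest mean was 22205 in siCtrl, 29678 in siQKI, 23196 in siRBFOX2 and 14024 in HPAF-II libraries. With 1 library left out the sums were 41643 to 43459, 58215 to 60640, 43721 to 46723 and 23969 to 25055. The count of 27 rows at least 2-fold apart between lines was 19 to 33 over the other settings and 25 to 29 with 1 library left out. Of 844 values of single genes under alternatives, 816 kept their side of the threshold, 22 lost a call, 6 gained 1 and 0 of those called reversed. A change of direction was not counted where a gene passed in neither setting. One such gene was H3C6 in siQKI libraries, at -0.24 to 0.27 with 1 library left out. Upper-quartile rescaling moved the median of all genes from 0.03 to 0.10 for siQKI and the split of its calls from 3362 higher and 4070 lower to 4488 and 2861, while the histone rows gave 15 higher and 1 lower. For siRBFOX2 the split moved from 2713 higher and 3272 lower to 3334 and 2512. The cause of each of these changes was not tested. Same-numbered libraries did not deviate together (r from -0.0325 to 0.0235 over 9 pairs, against -0.0333 to 0.0384 for other pairs), and with a replicate block the counts were 15, 2 and 8. A count-model alternative was not run, because a step of the values is not a sequenced fragment. Rows with few counts were measured with little precision, with a median SE of 0.30 over the histone rows.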
